A study of Mus musculus with 18 samples.

Results

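The genes described here encode the sterol and fatty acid synthesis machinery that the sterol regulatory element-binding proteins (SREBPs) switch on, together with the SREBP genes themselves and their partners. The 34 genes were chosen by symbol from a list of such genes, and all 34 were found, each once, among the 25926 genes of the deposited expression table. They were followed by RNA-seq in macrophages that C57BL/6J marrow had given rise to (bone marrow-derived macrophages, BMDMs), grown out over 7 days with 50 ng/mL M-CSF. In all 18 samples the BMDMs sat in the upper insert of a Transwell with 0.4 μm pores, above renal tubular epithelial cells (TECs) from wild-type mice. In the 6 NC samples the TECs were free of crystals and PBS was added to the BMDMs. In the 6 COM samples, PBS was also added to the BMDMs, but the TECs had been exposed to calcium oxalate monohydrate (COM) crystals at 100 μg/mL for 24 h. In the 6 COM+Met samples the TECs were exposed in the same way and the BMDMs received 5 mM Met for 24 h, where Met is an abbreviation that the labels do not spell out. No genotype other than wild type is given for any group. C57BL/6J mice were obtained at 6 to 8 weeks of age, and the age at which marrow was taken is not stated. Whether replicates are separate cultures or animals is not labelled, and every p-value therefore reflects the scatter among the sequenced samples, possibly a technical one.

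Cholesterol is built from acetyl-CoA. The mevalonate branch turns acetyl-CoA into isoprenoid units and farnesyl diphosphate, squalene is made from these, and a longer series of enzymes closes and trims the rings of the sterol. Fatty acids are also made from acetyl-CoA, and are then lengthened and desaturated. SREBPs are made as membrane proteins of the endoplasmic reticulum. When sterols are scarce the escort protein Scap carries them to the Golgi for cleavage, and the freed part enters the nucleus and switches on these genes, while Insig proteins hold Scap back when sterols are plentiful. Srebf2 is best known for the sterol branch and Srebf1 for the fatty acid branch. In macrophages both branches are known to shift with inflammatory activation and with the uptake of lipid.

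Stretches around the transcription start are shown for 4 genes that the results turn on: Hmgcs1, which had the largest fall, Insig1 and Srebf2 among the regulators, and Ggps1, a gene of the same branch that moved the other way. The last 3 were chosen after their values had been seen. The sequences were taken from RefSeq on GRCm38.p6, a later build than the mm8 and mm9 named for these files, and each runs from 250 bases before to 50 bases after the start. Capitals mark a sterol regulatory element (SRE, TCACNCCAC), an E-box (CACGTG) or a CCAAT box, which reads ATTGG where it lies on the other strand.
Hmgcs1, chr13:119690101-119690400, plus strand: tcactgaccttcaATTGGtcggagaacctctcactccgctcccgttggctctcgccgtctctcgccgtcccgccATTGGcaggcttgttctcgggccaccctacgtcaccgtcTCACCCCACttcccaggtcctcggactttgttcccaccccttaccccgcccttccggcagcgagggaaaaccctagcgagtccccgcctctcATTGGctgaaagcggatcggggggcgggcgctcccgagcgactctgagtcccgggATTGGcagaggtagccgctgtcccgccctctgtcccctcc
Insig1, chr5:28071162-28071461, plus strand: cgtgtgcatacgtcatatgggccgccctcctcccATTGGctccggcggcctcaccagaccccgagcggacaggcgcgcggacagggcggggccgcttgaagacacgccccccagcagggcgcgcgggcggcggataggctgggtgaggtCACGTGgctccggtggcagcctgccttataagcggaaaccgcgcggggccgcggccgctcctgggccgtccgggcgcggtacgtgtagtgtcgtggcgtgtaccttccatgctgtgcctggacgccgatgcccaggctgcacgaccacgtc
Srebf2, chr15:82147019-82147318, plus strand: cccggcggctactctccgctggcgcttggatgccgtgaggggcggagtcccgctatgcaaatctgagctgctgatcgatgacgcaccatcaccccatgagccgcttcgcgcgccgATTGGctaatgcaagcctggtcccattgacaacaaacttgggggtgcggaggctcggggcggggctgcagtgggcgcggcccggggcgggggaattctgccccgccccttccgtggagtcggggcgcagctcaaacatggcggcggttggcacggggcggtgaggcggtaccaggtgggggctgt
Ggps1, chr13:14063439-14063738, minus strand: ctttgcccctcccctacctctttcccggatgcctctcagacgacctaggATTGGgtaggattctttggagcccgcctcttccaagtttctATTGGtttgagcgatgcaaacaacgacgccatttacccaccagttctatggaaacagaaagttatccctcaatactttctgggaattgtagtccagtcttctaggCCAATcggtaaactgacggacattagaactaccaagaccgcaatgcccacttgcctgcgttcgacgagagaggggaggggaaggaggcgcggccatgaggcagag
The Hmgcs1 stretch held 1 match to the SRE and 4 CCAAT boxes, the Insig1 stretch 1 E-box and 1 CCAAT box, the Srebf2 stretch 1 CCAAT box and the Ggps1 stretch 3 CCAAT boxes. Both strands were searched in the 27 of 34 genes for which the table held such a stretch. It held none for Fdps, Fdft1, Sqle, Stard4, Scd1, Scd2 and Fads1. A CCAAT box was present in 21 of the 27 (77.8%), against 37.9% of 27025 promoters of the same length. A GC box (GGGCGG) was present in 20 (74.1%), against 35.9% of all promoters, and 16 of the 27 held both. The E-box was found in 4 (14.8%, against 7.24%), which were Hsd17b7, Sc5d, Insig1 and Scap. The SRE was found in Hmgcs1 alone (3.70%, against 1.22%). The DR4 element of the liver X receptor (LXR) was found in 0 of the 27 and in 0.0111% of all promoters. Only exact matches were counted, so a form of an element with a differing base is not among them. These matches describe the letters in this window only.

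The values are FPKM, that is, mapped fragments scaled to the length of a gene and to the total of its sample, and read depth is unknown. The FPKM of all genes summed to between 380731 and 449186 per sample. All 12 macrophage markers examined were at 1 FPKM or more on average in every group, and their summed level was 11412 to 15901 in NC, 10717 to 14464 in COM and 12453 to 17196 in COM+Met. Most of that sum was Lyz2, at 9797 to 13995 FPKM in NC, and single markers differed both ways, such as Mrc1 at means of 79.9 in NC and 3.26 in COM, and Adgre1 at 112 and 577. Markers of other cells differed between the groups. The 11 tubular epithelial markers summed to 10.9 to 18.2 FPKM in NC, 0.468 to 1.35 in COM and 0.0435 to 0.324 in COM+Met, mostly as Cdh1 (9.45 to 17.8 in NC), with Umod, Havcr1 and Krt18 at 0 and 7 of the 11 below 0.1 in all samples. Adipocyte markers, from cells that make much fatty acid, summed to 9.80 to 34.7 in NC, 0.872 to 5.21 in COM and 2.58 to 6.07 in COM+Met, mostly as Fabp4 (9.35 to 30.7 in NC), with Lep at 0 and Adipoq below 0.1. Neutrophil markers were uneven. They summed to 535 to 1017, 170 to 552 and 74.0 to 137, mostly as Mmp8, S100a8 and S100a9, with NC means of 336, 254 and 171 FPKM. Of the 10 neutrophil markers, 7 averaged at least 1 FPKM in NC, 5 in COM and 4 in COM+Met. Ly6g, Mpo and Elane were low, with NC means of 0.0584, 0.145 and 0.479 FPKM. Stromal markers summed to 13.1 to 59.4, 4.59 to 36.3 and 2.33 to 7.26, and lymphoid markers to at most 0.307. Camp, of the neutrophil list, and Pdgfrb, of the stromal list, were higher in COM than in NC, at means of 7.93 against 4.33 and 4.81 against 1.06 FPKM. The part of these other cells in the results below was not tested. In bulk RNA, fewer cells of a type and less RNA per cell cannot be told apart.

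The 6 COM libraries fell into 2 sets that the labels do not name and that were seen in the values. COM-4, COM-5 and COM-6 each lay below every one of COM-1, COM-2 and COM-3 in 32 of the 34 genes, with Ggps1 and Sc5d as the exceptions, against 44.7% of all genes tested. NC-5 and NC-6 lay below NC-1 to NC-4 in 21 of the 34, against 27.1% of all genes. The labels give no batch, so these sets cannot be placed. Many of the results that rest on them are given with and without them, but not all. Because the sets were chosen from these same values, leaving out a set of COM libraries also removes much of the spread within COM. The p-values and counts of such fits therefore describe the chosen libraries and are no independent test of a change. The median SD of log2 values within a group, over the 33 of them that averaged at least 1 FPKM in the 18 samples, was 0.177 in NC, 0.789 in COM and 0.0832 in COM+Met. Over all 10751 such genes of the table it was 0.157, 0.312 and 0.0964.

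**Figure D1:**
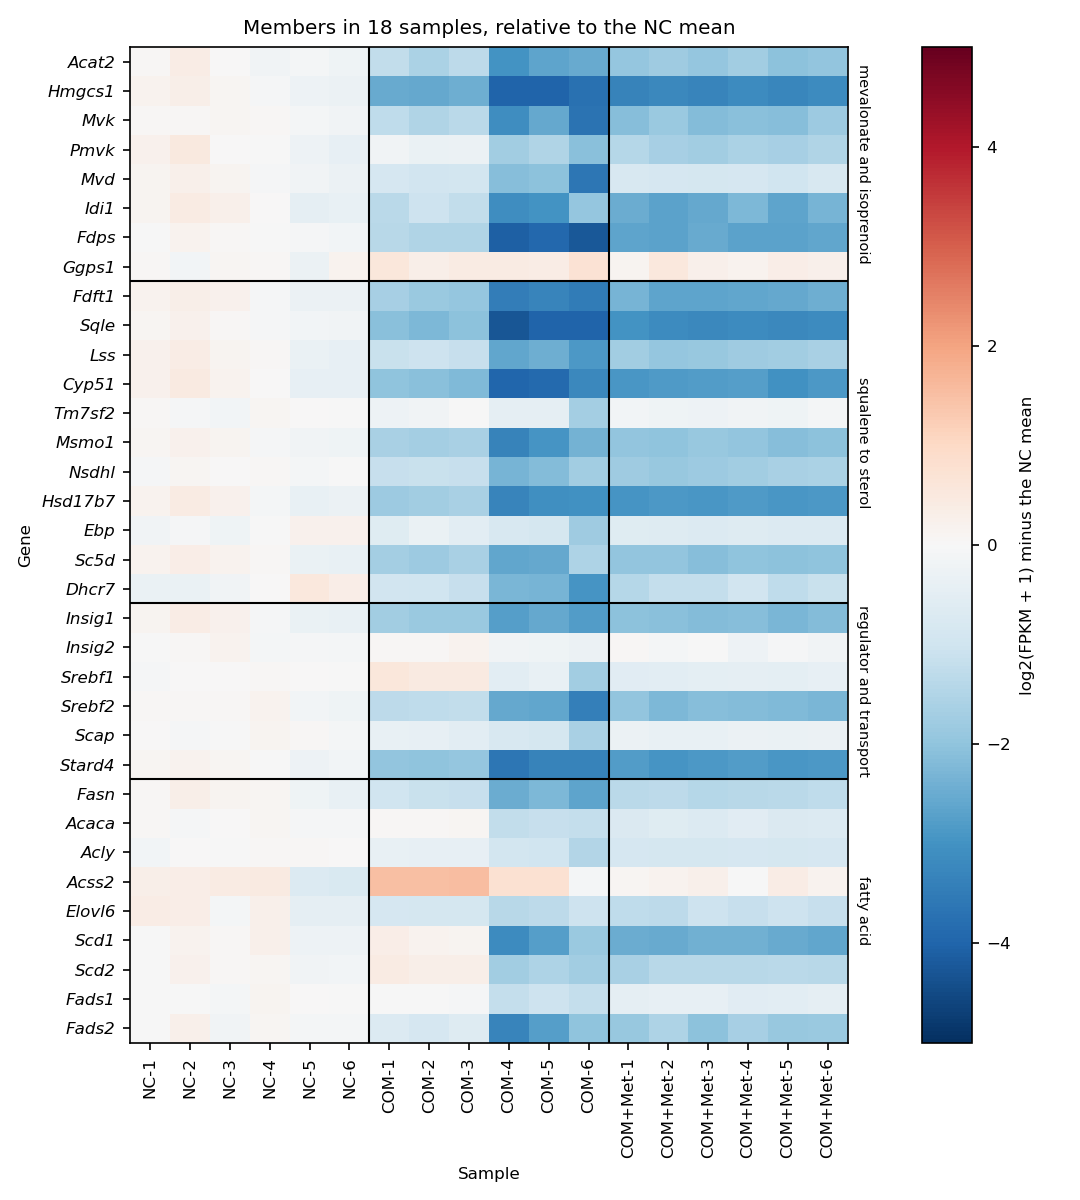
Heat map of the 34 genes (rows, grouped by role) in the 18 samples (columns), coloured by log2(FPKM + 1) minus the mean of the 6 NC samples of the same gene. Most rows were lower (blue) in all COM and COM+Met samples, most deeply in COM-4 to COM-6, while Ggps1 and Acss2 were higher than the NC mean in most COM samples.

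The first comparison asked how exposure of the TECs to COM crystals was reflected in the BMDMs above them. Most of the sterol and fatty acid synthesis genes were lower in COM than in NC. Values were compared as log2(FPKM + 1), so that folds of low genes are understated, with limma across the 10900 genes that averaged at least 1 FPKM over the 12 samples. All 34 genes passed this filter. A gene is said to have risen or fallen where its Benjamini-Hochberg adjusted p over all these genes was below 0.05. Of the 34, 28 passed (82.4%), against 53.3% of all genes tested. Of these, 26 fell (76.5%) and 2 rose, while over all genes 40.6% fell and 12.7% rose. A fall of at least 2-fold was seen in 22 of the 34 (64.7%), against 11.7% of all genes. A fall of at least 4-fold was seen in 12 (2.31% of all genes), while 0 rose at least 2-fold (5.99%). Acss2, at 0.99, was just short of that and exceeded it when any one of NC-1 to NC-4 or COM-4 to COM-6 was left out (1.04 to 1.21). Elovl6 passed the filter only through NC, with a mean of 0.387 FPKM in COM, and without it 25 of 33 fell, 21 of them at least 2-fold. The 6 COM samples all lay below the 6 NC samples in 24 of the 34, against 29.7% of all genes. The median log2 fold change of the 34 genes was -1.76 and that of all genes was -0.27, a difference of -1.49, and 32 of the 34 were below 0.

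The counts by branch are to be read against the 40.6% of all genes that fell and the 12.7% that rose. The mevalonate and isoprenoid branch had 8 genes, of which 7 fell and 1 rose, with a median log2 fold change of -1.99. Hmgcs1, which makes HMG-CoA for the mevalonate branch, was measured at 134, 168 and 199 FPKM (lowest, median and highest) in NC and at 9.19, 19.0 and 29.7 in COM. The groups lay far apart, and the fall was the largest of the 34 (log2 fold change -3.21, SE 0.30, adjusted p = 3.16e-06). Its means were 165 ± 25.7 FPKM in NC and 19.0 ± 9.96 in COM (SD, n = 6 each), a ratio of 8.70. Fdps, the farnesyl diphosphate synthase, was at 135, 149 and 171 FPKM in NC and 6.95, 30.4 and 56.4 in COM, without overlap (log2 fold change -2.77, SE 0.52, adjusted p = 0.000771). The COM values of Fdps were the most divided of this branch, at 51.7 to 56.4 in COM-1 to COM-3 and 6.95 to 9.02 in COM-4 to COM-6. The mevalonate kinase Mvk was at 27.5, 32.7 and 33.8 FPKM in NC and 1.52, 7.58 and 12.4 in COM (log2 fold change -2.24, SE 0.37, adjusted p = 0.000332). Acat2, which joins 2 molecules of acetyl-CoA, fell by 2.04, from 21.5 ± 3.46 to 5.03 ± 2.92 FPKM. It has a close relative, Acat3, with which reads may be shared. Idi1, the isopentenyl diphosphate isomerase, fell by 1.94, from 57.1 ± 13.4 to 16.1 ± 8.96 FPKM, and Mvd, the mevalonate diphosphate decarboxylase, by 1.75, from 78.0 ± 11.6 to 27.1 ± 15.7 FPKM.

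Pmvk and Ggps1 set themselves apart from the other genes of the branch. Pmvk, the phosphomevalonate kinase, was at 21.5, 29.2 and 41.3 FPKM in NC and 6.11, 16.4 and 25.6 in COM, and here the groups overlapped (log2 fold change -1.02, SE 0.33, adjusted p = 0.0198). Without COM-4 to COM-6 the difference in Pmvk was -0.28 with an adjusted p of 0.206. Ggps1, which makes geranylgeranyl diphosphate for the lipid anchors of small GTPases, was at 4.005, 5.40 and 5.97 FPKM in NC and at 6.45, 7.07 and 9.20 in COM. All COM samples lay above all NC samples, as in 8.6% of all genes, and Ggps1 rose (log2 fold change 0.46, SE 0.11, adjusted p = 0.00333). Its change was alike without COM-4 to COM-6 (0.42) and without COM-1 to COM-3 (0.49). Exons of Ggps1 overlap those of Arid4b on the opposite strand, and the use of strand in counting is not stated, so its value carries that uncertainty.

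The branch from squalene to sterol had 11 genes, of which 10 fell and 0 rose, with a median log2 fold change of -1.97. Sqle, the squalene epoxidase, was at 71.8, 81.7 and 95.1 FPKM in NC and 3.25, 10.3 and 19.0 in COM (log2 fold change -3.11, SE 0.40, adjusted p = 4.23e-05). Cyp51, the lanosterol demethylase, was at 44.1, 64.0 and 81.2 FPKM in NC and 2.92, 8.90 and 14.1 in COM (log2 fold change -2.89, SE 0.36, adjusted p = 3.22e-05). Both groups were separate in both genes, and the 3 highest COM values were those of COM-1 to COM-3. Fdft1, the squalene synthase, was at 36.9, 48.3 and 56.4 FPKM in NC and 3.14, 7.53 and 13.9 in COM (log2 fold change -2.62, SE 0.34, adjusted p = 4.44e-05). Exons of Fdft1 overlap those of Ctsb on the opposite strand, a gene with a mean of 1176 FPKM, and exons of Cyp51 overlap those of Akap9 on the opposite strand.

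The other genes of the branch from squalene to sterol fell as well, apart from Tm7sf2. Hsd17b7, a sterol ketone reductase, was at 15.8, 21.2 and 27.9 FPKM in NC and 1.18, 3.45 and 6.11 in COM (log2 fold change -2.42, SE 0.31, adjusted p = 4.36e-05). Msmo1, which with Nsdhl removes methyl groups from the sterol, was at 75.3, 88.2 and 101 FPKM in NC and 7.61, 21.2 and 27.9 in COM (log2 fold change -2.26, SE 0.29, adjusted p = 4.06e-05). In both genes every COM sample lay below every NC sample. Nsdhl fell by 1.61 on the log2 scale, from 23.7 ± 1.23 to 7.57 ± 2.998 FPKM. Lss, which closes the rings to lanosterol, fell by 1.86, from 20.2 ± 4.31 to 5.58 ± 3.52 FPKM. The last steps to cholesterol include Sc5d, a sterol desaturase, which fell by 1.97, from 21.3 ± 4.25 to 4.87 ± 1.73 FPKM, and the reductase Dhcr7, which fell by 1.77, from 22.9 ± 6.36 to 6.76 ± 4.01 FPKM. Ebp, a sterol isomerase, fell by 0.82 only, from 23.4 ± 3.18 to 13.4 ± 4.13 FPKM (adjusted p = 0.00469). Tm7sf2, a sterol reductase, did not pass the test at 20.6 ± 1.18 FPKM in NC and 15.0 ± 5.06 in COM (log2 fold change -0.52, SE 0.23, adjusted p = 0.0727). It lay at 17.01 to 20.1 FPKM in COM-1 to COM-3, and COM-6 held the lowest value, 5.58. Leaving out COM-6 gave Tm7sf2 a log2 fold change of -0.28 with an adjusted p of 0.0161, and leaving out COM-3 gave -0.62 with 0.0410. Part of Tm7sf2 overlaps Vps51 on the same strand.

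**Figure D2:**
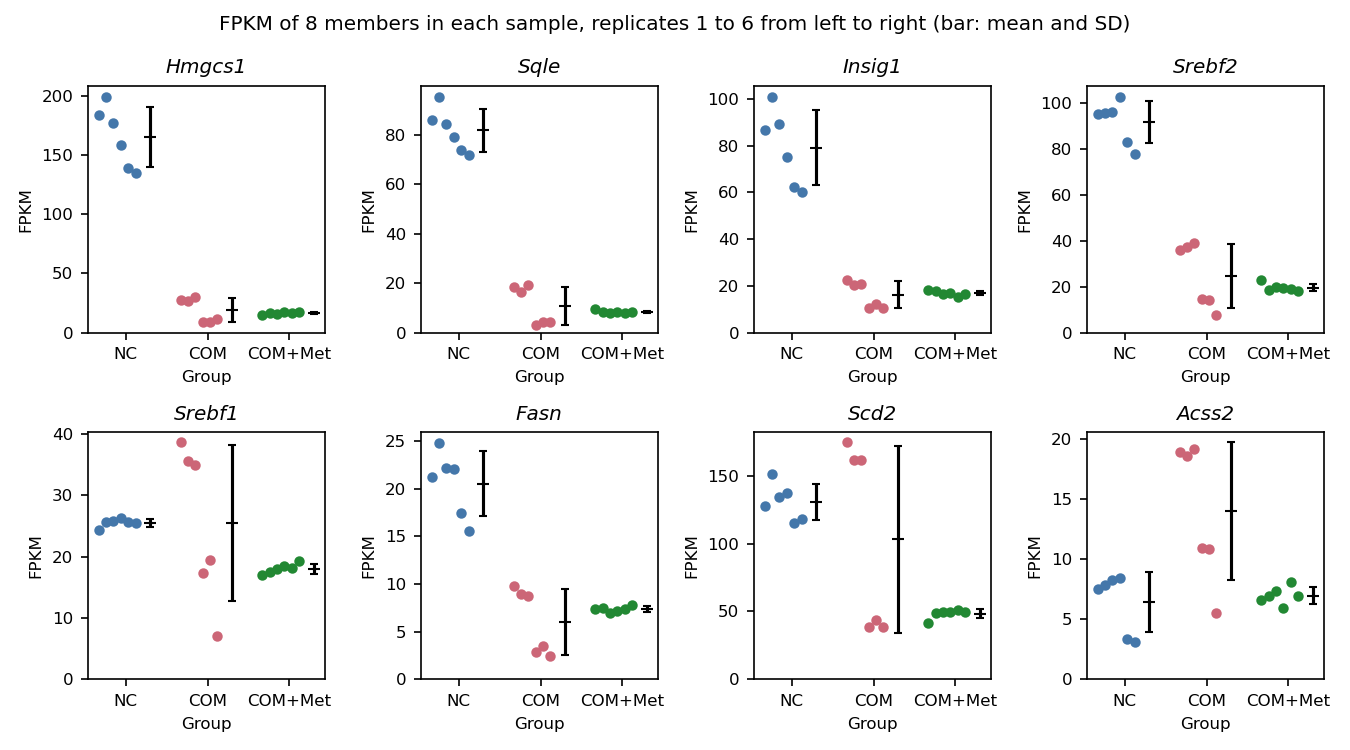
FPKM (y axis, from 0) of 8 genes in each NC, COM and COM+Met sample (points, replicates 1 to 6 from left to right in each group), with the mean and SD beside each group (bars, n = 6). Hmgcs1, Sqle, Insig1, Srebf2 and Fasn were lower in every COM and COM+Met sample than in any NC sample, while Srebf1 and Scd2 lay above all NC samples in COM-1 to COM-3 and below them in COM-4 to COM-6.

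The 6 regulators and transport genes did not move alike: 4 fell and 2 did not pass the test, with a median log2 fold change of -1.42. Srebf2 was at 77.8, 95.3 and 102 FPKM in NC and 7.51, 25.3 and 38.8 in COM (log2 fold change -2.06, SE 0.34, adjusted p = 0.000332). Insig1, which is itself switched on by SREBPs, was at 60.2, 80.9 and 101 FPKM in NC and 10.4, 16.4 and 22.6 in COM (log2 fold change -2.26, SE 0.22, adjusted p = 4.07e-06). The groups were separate in both genes. Stard4, which moves cholesterol between membranes, was at 26.3, 32.3 and 35.9 FPKM in NC and 1.60, 4.58 and 7.48 in COM (log2 fold change -2.71, SE 0.30, adjusted p = 1.52e-05). The escort Scap fell less, from 11.8 ± 0.704 to 6.79 ± 2.09 FPKM (log2 fold change -0.77, SE 0.18, adjusted p = 0.00297), and its groups did not overlap either. Insig2, the second Insig gene, was at 9.80 ± 0.804 FPKM in NC and 9.32 ± 1.31 in COM, with a log2 fold change of -0.07 (95% interval -0.29 to 0.14, adjusted p = 0.550). Its difference from 0 changed sign under another scaling of the samples, to 0.22 (adjusted p = 0.0313) with median-of-ratios size factors.

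Srebf1 was divided by library rather than moved as a group. It was at 24.3, 25.6 and 26.3 FPKM in NC, a narrow range, and at 7.02, 27.2 and 38.7 in COM. COM-1 to COM-3 lay at 34.9 to 38.7, above every NC sample, and COM-4 to COM-6 at 7.02 to 19.4, below every NC sample. The log2 fold change over all 6 was -0.19 (95% interval -0.90 to 0.51, adjusted p = 0.629). It was 0.49 (adjusted p = 5.17e-05) without COM-4 to COM-6 and -0.88 (adjusted p = 0.0119) without COM-1 to COM-3, and the sign also turned, to 0.11 (adjusted p = 0.628), without COM-6 alone. Exons of Srebf1 overlap those of Rai1 on the opposite strand. Isoforms of Srebf1 are not separated in the table.

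The fatty acid branch had 9 genes, of which 5 fell, 1 rose and 3 did not pass the test, with a median log2 fold change of -0.77. In so few genes these counts are not set apart from the 40.6% of all genes that fell and the 12.7% that rose. Elovl6, among the 5, passed the filter only through NC. Fasn, the fatty acid synthase, was at 15.6, 21.7 and 24.8 FPKM in NC and 2.39, 6.11 and 9.77 in COM, without overlap (log2 fold change -1.77, SE 0.30, adjusted p = 0.000340). Fads2, a desaturase of polyunsaturated fatty acids, fell from 18.3 ± 2.15 to 6.38 ± 4.69 FPKM (log2 fold change -1.71, adjusted p = 0.00445). Elovl6, an elongase, fell by 1.05 at low level, from 1.92 ± 0.744 to 0.387 ± 0.214 FPKM, and Acly, which makes cytosolic acetyl-CoA from citrate, fell by 0.77, from 77.1 ± 3.47 to 46.6 ± 13.4 FPKM. Fads1, another desaturase, passed the test narrowly, at 27.3 ± 1.60 FPKM in NC and 19.2 ± 8.11 in COM (log2 fold change -0.59, SE 0.23, adjusted p = 0.0457). It no longer passed when any one of the 6 NC samples (-0.61 to -0.56, adjusted p 0.0621 to 0.0840) or any one of COM-4 to COM-6 (-0.50 to -0.47, adjusted p 0.0853 to 0.101) was left out, and was at -0.04 (adjusted p = 0.626) without COM-4 to COM-6.

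Acss2, which makes acetyl-CoA from acetate, was the other gene that rose, at 3.07, 7.69 and 8.46 FPKM in NC and 5.47, 14.8 and 19.2 in COM (log2 fold change 0.99, SE 0.32, adjusted p = 0.0192). COM-1 to COM-3 held the 3 highest values, 18.6 to 19.2, and COM-6 lay within the NC range. Without COM-1 to COM-3 the difference in Acss2 was 0.47 (adjusted p = 0.248), and without NC-5 and NC-6, its lowest samples, it was 0.62 (adjusted p = 0.111). Exons of Acss2 overlap those of Gss on the opposite strand.

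Acaca, Scd1 and Scd2 did not pass the test, and each was divided by library. Acaca, which commits acetyl-CoA to fatty acid synthesis, was at 8.44 to 9.50 FPKM in NC, 9.33 to 9.49 in COM-1 to COM-3 and 3.25 to 3.43 in COM-4 to COM-6 (log2 fold change -0.56, adjusted p = 0.0814). It passed when COM-1, COM-2 or COM-3 was left out (-0.69 to -0.68, adjusted p 0.0358 to 0.0382). Scd1, which makes monounsaturated fatty acids, was at 9.10 to 13.6 FPKM in NC, 12.1 to 14.0 in COM-1 to COM-3 and 0.365 to 2.31 in COM-4 to COM-6 (log2 fold change -1.19, SE 0.58, adjusted p = 0.0995). It passed without COM-1 (-1.49, adjusted p = 0.0412) or without COM-2 (-1.47, adjusted p = 0.0474). Scd2, its neighbour in sequence, was at 116 to 151 FPKM in NC, 162 to 175 in COM-1 to COM-3 and 38.7 to 44.1 in COM-4 to COM-6 (log2 fold change -0.66, adjusted p = 0.188). Reads of Scd1 and Scd2 may be shared between them. Without COM-4 to COM-6 the differences were 0.07 for Acaca, 0.21 for Scd1 and 0.35 for Scd2, of which only that of Scd2 passed (adjusted p = 0.00818). Without COM-1 to COM-3 they were -1.19, -2.59 and -1.67, and all 3 passed (adjusted p 2.84e-06 to 2.07e-05).

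**Figure D3:**
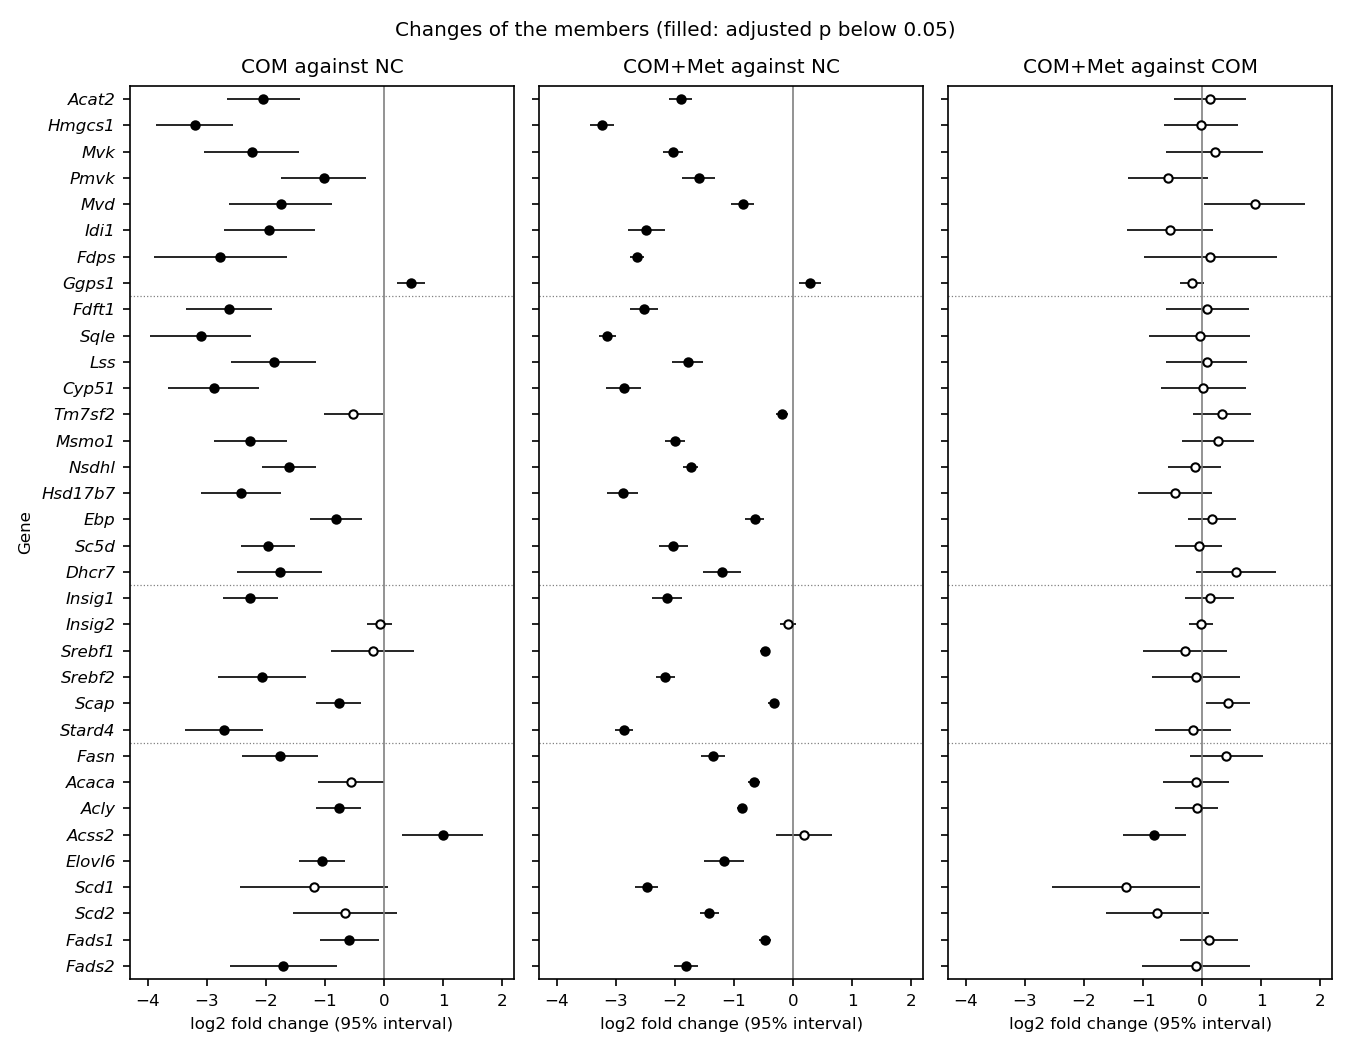
Log2 fold changes (points) with 95% intervals (lines) of the 34 genes in COM against NC, COM+Met against NC and COM+Met against COM, on the log2(FPKM + 1) scale, filled where the adjusted p was below 0.05. In the first 2 panels most genes lay left of 0, and in the third 1 gene, Acss2, was filled, with wide intervals for most genes. Elovl6 was not tested in the third panel.

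The counts differed between the 2 sets of COM libraries, which were chosen from these same values, so the counts describe those libraries only. Against the 6 NC samples, 24 fell and 4 rose without COM-4 to COM-6, against 36.6% and 17.7% of all genes, and the 4 that rose were Ggps1, Acss2, Srebf1 and Scd2. The median log2 fold change was -1.05, and -0.14 over all genes. Without COM-1 to COM-3, 31 fell and 1 rose, against 50.2% and 11.7% of all genes, with a median of -2.55, and -0.42 over all genes. Srebf1 and Scd2 were among the 31 that fell here. In these 5 genes both sets fell: Hmgcs1 by 2.50 and by 3.91 on the log2 scale, Sqle by 2.13 and by 4.09, Insig1 by 1.82 and by 2.71, Srebf2 by 1.27 and by 2.86, and Fasn by 1.08 and by 2.45. All COM-1 to COM-3 samples lay below all NC samples in 24 of the 34 genes (35.4% of all genes), and all COM-4 to COM-6 samples in 32 (46.6%). In the exact permutation test (two-sided, 924 ways to choose the groups), which takes each gene alone, 25 of the 34 reached 0.00216, the smallest p it allows for 6 against 6, and 38.2% of all genes did so.

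The levels of the role groups show where the 2 sets parted. The mean log2(FPKM + 1) over the 8 mevalonate genes was 5.25 to 5.71 in NC, 4.32 to 4.44 in COM-1 to COM-3 and 2.84 to 3.06 in COM-4 to COM-6. Over the 11 genes from squalene to sterol it was 4.92 to 5.24, 3.70 to 3.71 and 2.40 to 2.53. For the 8 fatty acid genes other than Elovl6 it was 4.36 to 4.72 in NC, 4.52 to 4.60 in COM-1 to COM-3 and 2.92 to 3.10 in COM-4 to COM-6. In COM-1 to COM-3 the sterol groups were thus below NC while the fatty acid group lay within the range of the 6 NC samples. In COM-4 to COM-6 all groups were below. The low end of the fatty acid range came from NC-5 (4.39) and NC-6 (4.36), with NC-1 to NC-4 at 4.59 to 4.72. COM-2 (4.52) and COM-3 (4.54) lay below every one of NC-1 to NC-4, and COM-1 (4.60) did not. Single fatty acid genes went both ways in COM-1 to COM-3, where Fasn, Acly, Fads2 and Elovl6 lay below every NC sample and Acss2 and Scd2 above every one. COM-6 differed from COM-4 and COM-5 in some genes. Mvd was at 5.41 FPKM in COM-6 against 16.8 and 18.1, and Srebf1 at 7.02 against 17.3 and 19.4. Sc5d was at 6.60 against 2.65 and 2.78, and Msmo1 at 16.0 against 7.61 and 10.3.

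**Figure D4:**
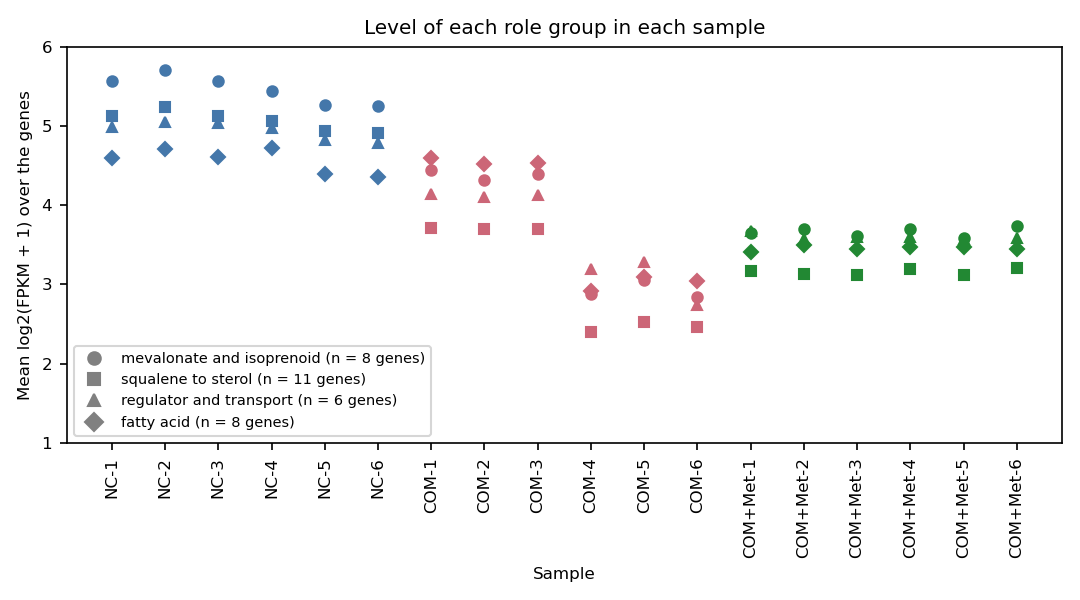
Mean log2(FPKM + 1) over the genes of each role group (markers) in each of the 18 samples, with NC in blue, COM in red and COM+Met in green. The 3 groups other than the fatty acid genes were below NC in all COM samples. The fatty acid genes of COM-1 to COM-3 lay within the NC range, of which NC-5 and NC-6 were the low end. The COM+Met samples lay between the 2 sets of COM libraries.

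Genes next to these in the pathways were taken from lists of other genes with the same roles, to be read against the 40.6% of all genes that fell, the 12.7% that rose and their median of -0.27. Of 7 genes tested from the list of other sterol pathway genes, 4 fell and 0 rose (median log2 fold change -0.42). With so few genes these counts are not set apart from the shares of all genes. Lbr, a sterol reductase of the nuclear envelope, fell from 10.6 ± 1.51 to 1.65 ± 0.362 FPKM (log2 fold change -2.13, adjusted p = 4.28e-08), and here the 6 COM samples stayed between 1.35 and 2.23. Pcyt2, on the same list though of phosphatidylethanolamine synthesis rather than of sterols, fell by 1.82 and Tmem97 by 0.89. Of 13 genes that use isoprenoids, 5 (38.5%) fell and 0 rose (median -0.20), a share near that of all genes, among them Pdss1, of the ubiquinone side chain, by 0.80 and the farnesyltransferase subunits Fnta by 0.74 and Fntb by 0.47. Of 10 genes of SREBP processing and sterol sensing, 4 (40%) fell and 1 rose (median -0.18), again near the share of all genes. Mbtps1, the protease that first cuts SREBPs, fell by 0.68 and Pgrmc1 by 0.47, and the ubiquitin ligase gene Rnf145 rose by 0.74.

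Of 20 other genes of fatty acid synthesis and activation, 9 (45%) fell and 2 rose (median -0.37), also near the share of all genes. Hacd1 and Elovl7, among the 9, passed the filter only through NC, with COM means of 0.0550 and 0.451 FPKM. Lpin1, a phosphatidate phosphatase, fell from 9.87 ± 2.22 to 1.51 ± 0.706 FPKM (log2 fold change -2.14, adjusted p = 2.61e-06), Hacd1 by 1.66 and Lpcat3, which puts polyunsaturated chains into phospholipids, by 1.43. Acsl1, which activates long-chain fatty acids with CoA, rose from 81.8 ± 41.3 to 588 ± 27.7 FPKM (log2 fold change 2.98, adjusted p = 2.97e-06), and Acsl5 rose by 1.05. The COM values of Acsl1 were close together, at 548 to 621. Its NC values were not, at 94.1 to 145 in NC-1 to NC-3 and 40.6 to 56.9 in NC-4 to NC-6. Of 8 genes of oxysterols and LXR, 2 rose and 2 fell (median 0.10). The cholesterol exporter Abca1, an LXR target, rose from 8.12 ± 4.58 to 69.4 ± 22.0 FPKM (log2 fold change 3.11, adjusted p = 3.60e-05) and Mylip, another, by 1.20, while the sterol hydroxylase Cyp27a1 fell by 1.73 and Soat1, which esterifies cholesterol, by 0.48. The LXR genes themselves, Nr1h3 and Nr1h2, were at -0.35 and -0.20 and did not pass (adjusted p = 0.367 and 0.455). Nr1h3 was divided by library in both groups. It lay at 11.99 to 13.5 FPKM in NC-1 to NC-4 and at 28.4 and 31.7 in NC-5 and NC-6. COM-1 to COM-3, at 8.35 to 9.29, lay below every NC sample. COM-4 to COM-6, at 14.7 to 22.4, lay above NC-1 to NC-4 and below NC-5 and NC-6.

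The second comparison asked what 5 mM Met added in BMDMs above crystal-exposed TECs. It used the same 6 COM samples, and its outcome depended on which of them were counted. Of 33 genes tested, 1 passed, against 13.4% of 10364 genes. It fell and 0 rose (7.58% and 5.77% of all genes), with a median log2 fold change of -0.02. Elovl6 was below the filter, at 0.264 ± 0.09998 FPKM in COM+Met. The gene that fell was Acss2, at 5.47, 14.8 and 19.2 FPKM in COM and 5.92, 6.95 and 8.06 in COM+Met (log2 fold change -0.81, SE 0.25, adjusted p = 0.0470). The groups overlapped through COM-6 alone. A change of at least 2-fold was called in 0 of the 33 in either direction (1.61% of all genes lower and 0.608% higher), and in 0 of the 33 did all COM+Met samples lie below all COM samples (5.34% of all genes). Acss2 no longer passed when COM-1, COM-2 or COM-3 (-0.71 to -0.70, adjusted p 0.0966 to 0.09997) or any one COM+Met sample (-0.85 to -0.77, adjusted p 0.0712 to 0.0971) was left out. At an unadjusted limma p below 0.05 were Mvd, Scap, Acss2 and Scd1, and the exact permutation test passed that level in Mvd, Scap and Acss2. The shares of all genes at these unadjusted levels were not calculated, so no result is read from them.

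The COM+Met samples were close to one another, and for many genes they lay between the 2 sets of COM libraries. All COM+Met samples were below COM-1 to COM-3 in 26 of the 33 genes (39.1% of all genes tested) and above COM-4 to COM-6 in 22 (21.9%), and both held for 17 (51.5%, against 5.66% of all genes). Hmgcs1 was at 26.7 to 29.7 FPKM in COM-1 to COM-3, 15.2 to 17.8 in COM+Met and 9.19 to 11.3 in COM-4 to COM-6. Sqle was at 16.4 to 19.0, 7.75 to 9.36 and 3.25 to 4.17, and Srebf2 at 35.8 to 38.8, 18.1 to 22.8 and 7.51 to 14.7. In these genes COM+Met overlapped neither set of COM libraries, lying below the first and above the second. Against COM-1 to COM-3 alone 28 of the 33 genes fell and 1 rose (43.4% and 17.8% of all genes), with a median of -0.69, and -0.13 over all genes. Against COM-4 to COM-6 alone 0 fell and 19 rose (7.77% and 16.1% of all genes), with a median of 0.67, and 0.13 over all genes. Over all genes those fits made 6349 and 2439 calls in either direction, and the fit on all 12 samples 1384 (13.4%).

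The other 16 genes did not follow this order. Scap, at 3.21, 7.10 and 8.80 FPKM in COM and 8.96, 9.23 and 9.57 in COM+Met, was higher in all COM+Met samples than in any COM sample, as in 5.83% of all genes, although it did not pass over all genes (log2 fold change 0.45, 95% interval 0.07 to 0.82, adjusted p = 0.108). It passed without COM-6 (0.28, adjusted p = 0.0374). Mvd was at 27.1 ± 15.7 FPKM in COM and 42.3 ± 2.33 in COM+Met (log2 fold change 0.89, 95% interval 0.04 to 1.75, adjusted p = 0.156), and there COM+Met overlapped COM-1 to COM-3. Scd1 was at 7.07 ± 6.54 FPKM in COM and 1.17 ± 0.113 in COM+Met, within the range of COM-4 to COM-6 (log2 fold change -1.29, 95% interval -2.54 to -0.04, adjusted p = 0.162). Without COM-4 it passed (-1.68, adjusted p = 0.0403). Srebf1 was at 16.98 to 19.2 FPKM in COM+Met (log2 fold change -0.29, 95% interval -0.99 to 0.42, adjusted p = 0.599) and passed without COM-6 (-0.60, adjusted p = 0.0389).

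For most genes the interval of this difference was wide, so that the fit did not tell a change from none. It ran from -0.65 to 0.60 for Hmgcs1, from -0.89 to 0.82 for Sqle, from -0.84 to 0.64 for Srebf2, from -0.28 to 0.53 for Insig1 and from -0.20 to 1.02 for Fasn. It was narrower for Insig2, at -0.22 to 0.18, and for Ggps1, at -0.37 to 0.03. Among neighbouring genes, 0 of 7 on the list of other sterol genes, 0 of 13 isoprenoid users and 0 of 10 SREBP processing genes passed. Over all genes 13.4% passed, 7.58% lower and 5.77% higher. A count of 0 among so few genes is not set apart from these shares. Of 18 other fatty acid genes, 1 fell and 1 rose (5.56% each), near the shares of all genes. Me1, which supplies NADPH, fell by 0.90, from 5.37 ± 1.32 to 2.36 ± 0.209 FPKM (adjusted p = 0.000764), and Hacd3 rose by 0.31 (adjusted p = 0.0361). Of 8 oxysterol and LXR genes, Ch25h, a cholesterol hydroxylase, fell by 0.93, Mylip by 0.46 and Abcg1 by 0.33, and Soat1 rose by 0.36 (adjusted p 0.000630 to 0.0413). Ch25h was divided by library, at 20.3 to 23.8 FPKM in COM-1 to COM-3 and 30.5 to 64.5 in COM-4 to COM-6.

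The third comparison set COM+Met against NC, and shares the NC samples with the first and the COM+Met samples with the second. Of 34 genes, 32 passed, against 75.2% of 10786 genes. Of these, 31 fell and 1 rose, while 55.9% of all genes fell and 19.3% rose. At least 2-fold falls were seen in 23 (13.6% of all genes) and at least 4-fold falls in 13 (3.44%). Without Elovl6, which passed the filter only through NC, 30 of 33 fell, 22 of them at least 2-fold. All COM+Met samples lay below all NC samples in 30 of the 34, against 43.6% of all genes, and above them in 0 (14.1%). A rise of at least 2-fold was seen in 0 (5.66%). The median log2 fold change was -1.76, and that of all genes was -0.26. Because the samples of both groups lay close together, standard errors were small. Hmgcs1 was at 16.5 ± 1.01 FPKM in COM+Met (log2 fold change -3.23, SE 0.09, adjusted p = 1.43e-11), Sqle at 8.33 ± 0.569 (-3.14, SE 0.07, adjusted p = 1.74e-12) and Stard4 at 3.44 ± 0.202 (-2.86, SE 0.07, adjusted p = 5.65e-12).

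By role, 7 of 8 mevalonate genes, 11 of 11 genes from squalene to sterol, 5 of 6 regulators and 8 of 9 fatty acid genes fell in COM+Met against NC. Over all genes 55.9% fell. Ggps1 rose by 0.28 (SE 0.08, adjusted p = 0.00859). Hsd17b7 was at 1.94 ± 0.0880 FPKM, against 21.1 ± 4.77 in NC, a ratio of means of 10.9. Srebf1, Acaca, Scd1 and Scd2, described above as divided by library in COM, fell here. Scd1 fell by 2.48 (SE 0.09), Scd2 by 1.42 (SE 0.07), Acaca by 0.66 (SE 0.05) and Srebf1 by 0.48 (SE 0.04). Scd2 was at 48.4 ± 3.53 FPKM in COM+Met and 131 ± 13.3 in NC. Srebf1 was no longer past the test when all 18 samples shared an estimate of the spread (-0.48, adjusted p = 0.136), nor were Scap (-0.32, adjusted p = 0.0648) and Tm7sf2 (-0.19, adjusted p = 0.411). The difference in Tm7sf2 also turned sign with median-of-ratios size factors, to 0.11 (adjusted p = 0.0293). Insig2, at 9.15 ± 0.763 FPKM (log2 fold change -0.09, adjusted p = 0.204), and Acss2, at 6.97 ± 0.722 (0.18, adjusted p = 0.453), did not pass. Without NC-5 and NC-6 the difference in Acss2 was -0.18 with an adjusted p of 0.0299.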

How the data were processed

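BMDM RNA-seq was analysed in 6 NC, 6 COM and 6 COM+Met samples, grouped by their labels. The authors deposited FPKM values, with 1 column per sample. Bowtie 0.12.2, mm8 and mm9 appear in the submitters' processing notes without a role. The program that calculated FPKM, the annotation and the use of strand were not given in the sources used here. TruSeq kits were used. Of the 25926 genes, 3890 carry no Ensembl identifier. Whole reads could not be recovered from low values, since the commonest ratio between samples covered at most 0.300% of low genes, so depth and counting error are unknown.

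FPKM values were transformed with a pseudocount of 1. A gene entered a comparison where it averaged 1 FPKM or more across both groups, and was tested in limma 3.58.1 (lmFit, eBayes with trend; R 4.3.3), with Benjamini-Hochberg adjustment over all genes tested. An exact permutation test, two-sided, was run on single genes. The fitting procedure was tested on simulated data. Other work was done in Python 3.11.15 with numpy 2.4.6, pandas 2.3.3 and matplotlib 3.10.9. Alternatives were pseudocounts of 0.1 and 5, no filter and a filter of 5 FPKM, median-of-ratios size factors, rescaling to the same sum (TPM), arrayWeights, quantile normalisation, all 18 samples in the same fit, the replicate number as a block, and samples left out. The 34 genes, the lists of neighbouring genes and the tests were chosen with earlier results of these data known. All 34 genes are described, with full statistics for up to 10 per comparison that passed with the largest changes and for Srebf1, Srebf2, Scap, Insig1 and Insig2. In each list of neighbouring genes up to 3 that passed with the largest changes are named. Lpcat3, Acsl5, Soat1, Nr1h3, Nr1h2 and Abcg1 fell outside this rule and were chosen after their values had been seen, as were the other statistics of single genes. All 34 were found by Ensembl identifier in GENCODE M21, from which overlaps between exons were taken.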

Additional observations from a re-analysis of the deposited data

Results flagged for a closer look

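In each of the 3 groups the 34 genes were searched for a single sample that stood far from the other 5, by Dixon's ratio against its 95% critical value. Of 102 sets, 4 held such a sample, and chance alone marks about 1 in 20 sets. Tm7sf2 in COM-6 was at 5.58 FPKM (ratio 0.740), with the other COM samples at 14.6 to 20.1. Ebp in COM-6 was at 6.16 FPKM (ratio 0.631), with the others at 12.3 to 18.2. Acly in NC-1 was at 70.5 FPKM (ratio 0.649), with the other NC samples at 76.5 to 80.0. Scd2 in COM+Met-1 was at 41.4 FPKM (ratio 0.765), with the others at 48.8 to 51.3.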

How the results depend on the processing

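Read depth is unknown, so the precision of low values such as those of Elovl6 is unknown too. In COM against NC, 802 of 848 values of single genes under the alternatives kept their direction and side of the test, 19 no longer passed, 15 newly passed and 12 changed sign. In COM+Met against NC these were 765, 5, 1 and 6 of 777, and in COM+Met against COM, over 11 genes, 201, 13, 25 and 24 of 263. The cause of changes was not tested.

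In COM against NC the count that fell stayed at 24 to 31 under all alternatives. The count that rose was 3 with median-of-ratios and 3 with arrayWeights, 1 without NC-5 and NC-6, 4 without COM-4 to COM-6 and 1 without COM-1 to COM-3, an alternative added after seeing the data. Leaving out single samples gave 25 to 28 genes that fell and 2 that rose. The count that rose at least 2-fold was 0, and was 1 (Acss2) with a pseudocount of 0.1, median-of-ratios, quantile normalisation and arrayWeights, without COM-4 to COM-6 and without any one of NC-1 to NC-4 or COM-4 to COM-6. Signs changed for Insig2 to 0.22 (median-of-ratios), 0.19 (quantile), 0.028 (arrayWeights) and 0.086 (without COM-4 to COM-6), for Srebf1 to 0.11 (median-of-ratios), 0.44 (arrayWeights) and 0.49 (without COM-4 to COM-6), with a range of -0.35 to 0.11 over single samples left out, for Scd2 to 0.20 (arrayWeights) and 0.35 (without COM-4 to COM-6), and without the same samples for Acaca to 0.067 and Scd1 to 0.21. With median-of-ratios size factors the median change of all genes was 0.0048, and that of the 34 genes -1.47.

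In COM+Met against COM the count that fell was 0 without the filter, with all 18 samples, with the replicate block and without COM-1 to COM-3, 27 with arrayWeights and 28 without COM-4 to COM-6. The count that rose was 1 with median-of-ratios, quantile normalisation, all 18 samples, arrayWeights and without COM-4 to COM-6, and 19 without COM-1 to COM-3. Leaving out single samples gave 0 to 3 that fell and 0 to 1 that rose, the 3 and the 1 both without COM-6. Calls over all genes were 1384, and were 6680 with arrayWeights, 6349 without COM-4 to COM-6, 2439 without COM-1 to COM-3, 2753 without COM-6 and 744 with the block. Signs changed for Sqle to 0.0012 (pseudocount 0.1), for the median of the genes to 0.0010 (filter of 5 FPKM), for Insig2 to 0.00036 (median-of-ratios) and for Insig1 to -0.29 (arrayWeights) and -0.32 (without COM-4 to COM-6). Without COM-1 to COM-3 they changed for the median to 0.67, Hmgcs1 to 0.68, Sqle to 0.94, Insig2 to 0.14, Srebf1 to 0.40, Srebf2 to 0.69, Scd1 to 0.11 and Scd2 to 0.25. Over single samples left out, the median and Hmgcs1 ran from -0.18 to 0.13, Sqle from -0.27 to 0.18, Insig2 from -0.064 to 0.029 and Srebf2 from -0.38 to 0.069.

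In COM+Met against NC the count that rose was 3 with median-of-ratios and 2 with quantile normalisation. Signs changed for Tm7sf2 to 0.11 and 0.017 and for Insig2 to 0.19 and 0.18 under these, and for Acss2 to -0.11 (arrayWeights) and -0.18 (without NC-5 and NC-6).

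Same-numbered samples did not deviate together (correlations of -0.22 to 0.056). The split of the COM and NC libraries into sets is part of these deviations and could hide a pairing. Whether the numbers pair the samples is therefore unknown. With the replicate number as a block, 25 genes fell and 2 rose in COM against NC, 0 and 0 in COM+Met against COM, and 31 and 1 in COM+Met against NC.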
